A study of Mus musculus with 51 samples.

Results

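A set of 1789 regions lost their H3K27me3 peak and carried a new 5hmC peak when MC3T3-E1 pre-osteoblasts were grown with vitamin C (VitC). They were chosen from the 84228 H3K27me3 peaks called in cells grown without VitC (VitC-). A peak entered the set when it was shorter than 10000 bp, had a −log10 q of at least 1.3, overlapped no H3K27me3 peak of cells grown with VitC (VitC+) by 1 bp, and overlapped a 5hmC peak of VitC+ cells that itself overlapped no 5hmC peak of VitC- cells. Such a 5hmC peak is called a gained 5hmC peak here. Of the 73885 H3K27me3 peaks that met the length and q limits, 38549 (52.2%) had no VitC+ counterpart and are called lost, 35336 overlapped one and are called kept, and 1789 (2.42%) formed the set. The H3K27me3 and 5hmC values of MC3T3-E1 cells therefore chose the regions, and those values are given as a description without a test. The H3K27me3 lists differed in extent, with 233.4 Mb covered in VitC- and 144.7 Mb in VitC+ cells. Of 68919 VitC+ peaks within the same length and q limits, 12838 (18.6%) overlapped no VitC- peak.

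The study compared VitC sufficiency and deficiency in bone and in a bone cell line. MC3T3-E1, a mouse calvarial pre-osteoblast line (subclone 4), was cultured with β-glycerophosphate and either no ascorbate (VitC-) or 50 µg/ml VitC (VitC+). All peak lists of this line come from 2 samples per group that the submitters combined. H3K27me3 and H3K9me3 ChIP-seq are described in the study's methods as made after 7 days and 5hmC immunoprecipitation (hMeDIP-seq) after 28 days, while the sample labels give 28 days for all cultures, so both marks may not stem from the same day. Femurs came from Gulo tm1Mae mice, which cannot make VitC: VitC+ mice drank 3.3 g/L VitC until 20 weeks of age, and VitC+/- mice drank it until 15 weeks and then went without it until 20 weeks. Wild-type (WT) C57BL/6 femurs, taken at 20 weeks for RNA, have intact Gulo. Femurs of 11-week-old mice without Tet1 and Tet2 in Prrx1-Cre cells (Tet1/2 cKO) were compared with femurs of control mice (Ctrl), which per the study express Prrx1-Cre too. Femurs without Tet1 alone (Tet1 cKO) or Tet2 alone (Tet2 cKO) in Prrx1-Cre cells entered the RNA fit for its estimate of the spread. Prrx1-Cre acts in limb mesenchyme, so marrow blood cells in those femurs keep both genes. Each femur group had 3 mice per assay, and whole femurs mix bone, marrow, fat and muscle.

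H3K27me3 is laid down by the polycomb complex PRC2 with its catalytic subunit Ezh2, marks silent genes, and is removed by the demethylases Kdm6a and Kdm6b. 5hmC is made from 5-methylcytosine, mostly at CpG, by Tet1, Tet2 and Tet3. Kdm6 and Tet enzymes both need iron and 2-oxoglutarate, and VitC keeps their iron reduced. In many cell types 5hmC is found in bodies of active genes and at enhancers, and CpG islands under polycomb control carry little of it.

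The sequences of 8 regions show how different the members are. The first 3 belong to the 5 regions that lay wholly under gained 5hmC peaks of highest fold enrichment, the next is a whole region in the intron of a bone gene, the fifth is a whole region at a Hox gene, the next pair are windows of 200 bases around gained 5hmC summits inside regions beside a gene that rose and one that fell in VitC+/- femurs, and the last is the region with the highest H3K27me3 fold enrichment. Letters are GRCm38, plus strand, from RefSeq, coordinates are 1-based, and capitals mark CpG, the site at which Tet enzymes mostly act.
Intergenic region nearest Inhbb, chr1:119255522-119255797: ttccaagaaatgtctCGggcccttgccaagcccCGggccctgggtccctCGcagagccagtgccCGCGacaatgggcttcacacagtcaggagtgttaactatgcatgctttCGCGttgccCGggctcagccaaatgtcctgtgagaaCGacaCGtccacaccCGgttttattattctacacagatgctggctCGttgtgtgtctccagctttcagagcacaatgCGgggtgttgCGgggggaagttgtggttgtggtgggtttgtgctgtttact
Tet1 intron, chr10:62885823-62886073: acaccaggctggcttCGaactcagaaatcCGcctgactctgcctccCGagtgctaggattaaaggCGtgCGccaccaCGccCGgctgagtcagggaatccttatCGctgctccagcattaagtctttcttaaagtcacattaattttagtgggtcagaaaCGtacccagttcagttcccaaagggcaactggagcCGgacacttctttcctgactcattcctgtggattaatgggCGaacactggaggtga
Chst3 promoter, chr10:60217320-60217559: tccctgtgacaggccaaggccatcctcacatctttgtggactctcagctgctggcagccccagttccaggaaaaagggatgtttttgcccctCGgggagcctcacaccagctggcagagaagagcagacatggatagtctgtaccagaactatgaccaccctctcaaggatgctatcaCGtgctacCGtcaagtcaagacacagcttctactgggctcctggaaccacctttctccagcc
Bmp8b intron, chr4:123112606-123112857: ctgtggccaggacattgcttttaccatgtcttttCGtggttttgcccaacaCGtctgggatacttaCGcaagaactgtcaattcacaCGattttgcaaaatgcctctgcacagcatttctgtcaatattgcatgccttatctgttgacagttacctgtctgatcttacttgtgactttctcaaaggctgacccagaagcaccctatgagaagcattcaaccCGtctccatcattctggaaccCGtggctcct
Hoxa11 promoter, chr6:52247059-52247329: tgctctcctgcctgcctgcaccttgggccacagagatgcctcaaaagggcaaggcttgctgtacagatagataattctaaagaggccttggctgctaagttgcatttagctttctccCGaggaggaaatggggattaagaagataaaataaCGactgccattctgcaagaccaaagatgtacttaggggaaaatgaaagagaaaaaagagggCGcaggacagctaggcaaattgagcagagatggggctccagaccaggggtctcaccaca
Fkbp5 promoter window, chr17:28517599-28517798: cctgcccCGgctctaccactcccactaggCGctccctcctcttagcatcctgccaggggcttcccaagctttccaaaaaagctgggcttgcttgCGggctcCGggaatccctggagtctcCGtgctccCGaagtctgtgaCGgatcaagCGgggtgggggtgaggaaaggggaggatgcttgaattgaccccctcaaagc
Dlx3 downstream window, chr11:95128073-95128272: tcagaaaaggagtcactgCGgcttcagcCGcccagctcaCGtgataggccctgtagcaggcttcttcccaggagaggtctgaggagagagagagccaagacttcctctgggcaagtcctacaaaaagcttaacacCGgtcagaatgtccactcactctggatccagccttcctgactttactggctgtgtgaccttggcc
Repeat region nearest 9530002B09Rik, chr4:122399643-122399886: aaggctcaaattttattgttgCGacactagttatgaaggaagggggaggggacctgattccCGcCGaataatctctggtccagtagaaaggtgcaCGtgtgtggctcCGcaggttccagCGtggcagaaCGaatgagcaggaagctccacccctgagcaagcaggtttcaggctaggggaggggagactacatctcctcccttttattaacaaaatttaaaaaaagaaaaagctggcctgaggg

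CpG number varied widely among these regions. The intergenic region on chromosome 1 held 14 CpG in 276 bases, the Tet1 intron 11 in 251 bases, and the Chst3 promoter region 3 in 240 bases. In the Bmp8b intron there were 6, at Hoxa11 3, in the Fkbp5 window 8 and in the Dlx3 window 4. The region of highest H3K27me3 enrichment, 244 bases with 7 CpG, was masked as repeat over all its length, as was 113 of 251 bases in the Tet1 intron. In the 100 bases on each side of gained 5hmC summits, the median number of CpG was 4 for 1943 summits of peaks on the set, 4 for 5112 on kept H3K27me3 peaks, and 3 for 157922 on neither. Summits without any CpG in that window were 0.257%, 0.274% and 0.532% of these groups. Gained 5hmC peaks on the set thus had the CpG number of those on kept H3K27me3 peaks.

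Enrichment for H3K27me3 was low in most of the 1789 regions. Their median fold enrichment over input was 2.40, from 1.89 to 3.64, and 12 regions (0.671%) reached 3. The median −log10 q was 1.67, and 1440 regions (80.5%) lay below 2, against 51.0% of kept peaks. Median length was 959 bp, compared with 2167 bp for kept peaks and 641 bp for the 35717 lost peaks that overlapped no VitC+ 5hmC peak. No lost peak at a gained 5hmC peak reached 10000 bp, and the longest member, in Myo18b, spanned 9739 bp. Below the q limit, 218 peaks that met every other criterion were left out, the nearest with −log10 q of 1.299, 1.2984 and 1.298, whereas the nearest members had 1.3, 1.3003 and 1.3007. A VitC+ H3K27me3 peak lay within 1 kb of 471 regions (26.3%) and within 5 kb of 1192 (66.6%), shares close to the 24.6% and 63.5% of lost peaks without VitC+ 5hmC.

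Most regions, 1649, touched 1 gained 5hmC peak, 126 touched 2 and 14 touched 3 or more, with at most 5. The gained peaks covered a median of 29.6% of the region, all of it in 146 regions, and under 50 bp in 136. In 1117 regions (62.4%) the 5hmC summit lay inside the lost H3K27me3 peak. Gained peaks on the set had a median fold enrichment of 4.36 and a median pileup of 19 fragments, against 4.59 and 21 for gained peaks off every eligible H3K27me3 peak. The 5 regions wholly covered by the strongest gained peaks lay 167 kb from Inhbb, at the Chst3 promoter, in the introns of Tet1 and Tspan11, and 138 kb from Plxnc1. Fold enrichment of the 5hmC peak was 15.2, 14.5, 13.3, 11.9 and 11.8 in that order. Tet1 itself, which encodes a 5hmC-forming enzyme, was thus among the genes with a fully covered region, at chr10:62885823-62886073, 23.0 kb from its start site. In 238 regions (13.3%) another stretch overlapped a VitC- 5hmC peak, so these had 5hmC without VitC as well.

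The regions were set against all H3K27me3 peaks to see whether loss of H3K27me3 and gain of 5hmC went together. Gained 5hmC peaks lay on 4.64% of lost peaks and on 11.5% of kept peaks. 5hmC peaks found only without VitC lay on 12.4% of lost and 26.9% of kept peaks. Lost H3K27me3 peaks thus met a VitC- only 5hmC peak more often than a VitC+ only one, and so did the 12838 H3K27me3 peaks found only with VitC, at 9.74% and 4.72%. Both 5hmC lists held similar shares of such peaks, with 164985 of 257696 VitC+ peaks (64.0%) and 191719 of 288862 VitC- peaks (66.4%) absent from the other list. Longer peaks overlap more features, and within length classes lost and kept peaks differed less, at 2.85% and 3.26% below 500 bp, 3.95% and 4.53% from 500 bp to under 1000 bp, 6.44% and 6.63% from there to under 2000 bp, and 11.9% and 16.9% above. In no length class did gained 5hmC meet lost peaks more often than kept ones. The regions are therefore those where both changes were called, and their number is not above that of the opposite 5hmC change. Each list pools its samples, so the lists give no spread between replicates and no test.

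**Figure D1:**
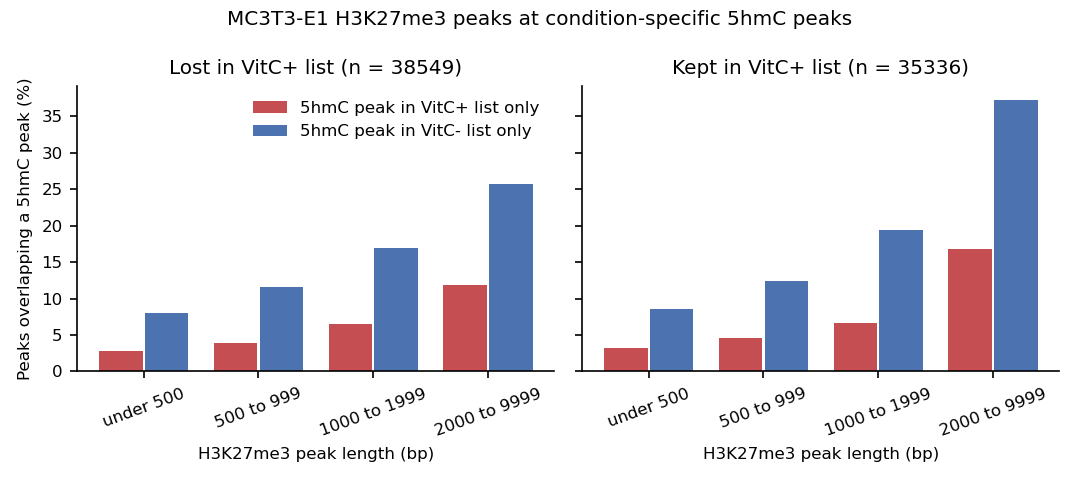
Share of VitC- H3K27me3 peaks (y axis, %) that overlapped a 5hmC peak of the VitC+ list only (red) or of the VitC- list only (blue), by H3K27me3 peak length in bp (x axis), for lost peaks (left) and kept peaks (right). The red bars of lost peaks, from 2.85% to 11.9%, hold the 1789 regions, and the blue bar is the higher one in every length class.

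The regions held more CpG than H3K27me3 peaks in general, and as much as or somewhat more than kept peaks at a gained 5hmC peak. CpG per 100 bp had a median of 1.27 in the set, 1.19 in kept peaks at a gained 5hmC peak, 0.95 in all kept peaks and 0.82 in lost peaks without VitC+ 5hmC. Below 500 bp the set had 1.49 and kept peaks at gained 5hmC 1.32, and from 2000 bp on they had 1.23 and 1.18. From 500 bp to under 1000 bp the set and kept peaks at gained 5hmC both had 1.25, and from there to under 2000 bp they had 1.21 each. GC content had medians of 48.1%, 47.1%, 45.7% and 46.0% in the same order, and repeats covered medians of 15.5%, 20.5%, 22.7% and 20.9%. A gained 5hmC peak chose the set and its nearest comparison class, and 5hmC lies mostly at CpG, so this measure is tied to the selection and the difference was not tested.

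**Figure D2:**
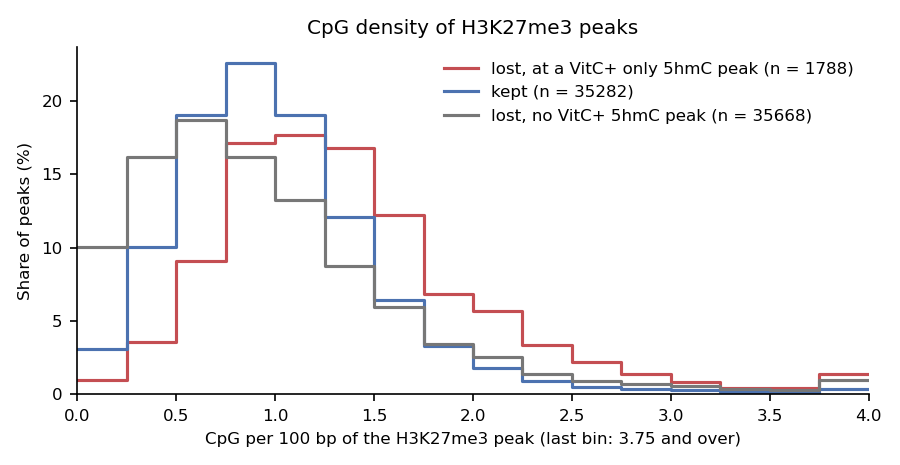
Distribution of CpG per 100 bp (x axis) as the share of peaks (y axis, %) in the lost regions at gained 5hmC (red), kept H3K27me3 peaks (blue) and lost peaks without VitC+ 5hmC (grey). The red line lies to the right, with a median of 1.27 against 0.95 and 0.82.

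By GENCODE annotation, 182 regions (10.2%) lay within 3 kb of a protein-coding start site, 160 (8.95%) over another exon, 445 (24.9%) in an intron, 28 (1.57%) in the 3 kb past a gene end and 973 (54.4%) farther away. Kept peaks were near start sites in 10.9%, kept peaks at a gained 5hmC peak in 16.7% and lost peaks without VitC+ 5hmC in 5.81%. Below 500 bp these shares were 11.4% in the set, 5.92% in kept peaks, 15.2% in kept peaks at gained 5hmC and 5.42% in lost peaks without VitC+ 5hmC. From 2000 bp on they were 13.0%, 13.9%, 17.8% and 8.11%. In both length classes the set lay between kept peaks at gained 5hmC and lost peaks without VitC+ 5hmC. The median distance to the nearest start site was 39.1 kb. Chromosome 11 held most regions, 159, which was 7.75% of its lost peaks, while chromosome X held 4 (0.805%) and chromosome Y none (0 of 8 lost peaks).

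The regions were often neighbours. Another member lay within 10 kb of 393 (22.0%) and within 50 kb of 826 (46.2%), and joining members with gaps of at most 50 kb gave 1272 runs, 45 of them with 4 or more. The run with most regions, 12 over 181 kb at chr5:36212082-36392740, lay beside Psapl1 and Sorcs2. Runs of 11 lay beside Zfp703 at chr8:26768540-26940193 and beside Ctnnb1, which encodes β-catenin, the effector of canonical Wnt signalling, at chr9:120777470-120898618. Runs of 9 lay beside Rufy4 and Tns1, over 228 kb, beside Ephb1 and Ky, and in Myo18b. Neighbouring regions can be pieces of 1 broad H3K27me3 domain, so they are not independent events.

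Femur 5hmC, which did not choose the regions, was compared next. Of 1784 autosomal regions, 493 (27.6%, 95% Wilson interval 25.6 to 29.8%) overlapped a 5hmC peak of VitC+ femurs and 374 (21.0%, 19.1 to 22.9%) one of VitC+/- femurs. The VitC+ list held 0.93 times the peaks of the VitC+/- list and covered a similar length, 175.5 against 175.0 Mb. Femur peaks of both lists met 333 regions, of the VitC+ list only 160, of the VitC+/- list only 41, and of neither 1250. That ratio of VitC+ only to VitC+/- only overlap, 3.90, compared with 1.06 for all kept peaks (2240 and 2109), 0.90 for lost peaks without VitC+ 5hmC (1255 and 1391) and 2.39 for kept peaks at a gained 5hmC peak (413 and 173). Intervals and ratios cover counting error only, since regions are no replicates of mice.

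The same excess was present at gained 5hmC peaks off H3K27me3. Counted per 5hmC peak, gained peaks on the set met VitC+ only and VitC+/- only femur peaks 165 and 41 times (ratio 4.02), gained peaks on kept H3K27me3 peaks 414 and 87 times (4.76), and gained peaks off every eligible H3K27me3 peak 15220 and 4372 times (3.48). MC3T3-E1 5hmC peaks shared by both culture conditions had a ratio of 3.49, and those found only without VitC had 0.41 (6671 and 16305). The comparison classes at gained and at VitC- only 5hmC peaks were added after the data had been seen.

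Loss of Tet1 and Tet2 went with fewer femur 5hmC peaks on the regions. Ctrl femur peaks met 1152 regions (64.6%, 62.3 to 66.8%) and Tet1/2 cKO peaks 649 (36.4%, 34.2 to 38.6%). Only the Ctrl list met 516 regions and only the Tet1/2 cKO list 13. Kept peaks had 33.6% and 17.3%, and lost peaks without VitC+ 5hmC 15.4% and 6.61%. The Ctrl list was also the longer, with 1.77 times the peaks of the Tet1/2 cKO list, and it met 1.77 times as many regions. By peak number, the regions thus gave the ratio of the lists. In length the lists covered 273.4 and 122.9 Mb. The ratio of overlapped peaks was 1.94 for kept peaks and 2.33 for lost peaks without VitC+ 5hmC. Among gained 5hmC peaks, Ctrl femur peaks met 61.4% on the set and 58.5% off H3K27me3 peaks, against 17.6% of MC3T3-E1 5hmC peaks found only without VitC.

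H3K9me3, the other repressive mark profiled in MC3T3-E1, was found on few regions. Of the 1784, 178 (9.98%, 8.67 to 11.5%) overlapped a VitC- H3K9me3 peak and 58 (3.25%, 2.52 to 4.18%) a VitC+ one. Both lists met 46 regions, the VitC- list only 132 and the VitC+ list only 12, a ratio of 11.0. In kept peaks this ratio was 5.02, in lost peaks without VitC+ 5hmC 4.21, and in kept peaks at gained 5hmC 9.82. The VitC- H3K9me3 list had 1.33 times the peaks of the VitC+ list.

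**Figure D3:**
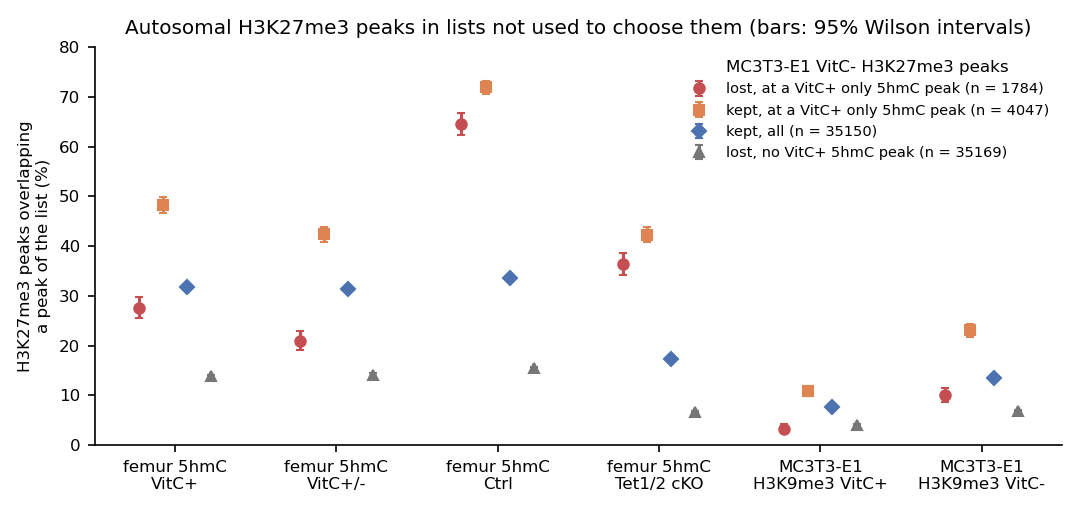
Share of autosomal VitC- H3K27me3 peaks (y axis, %, with 95% Wilson intervals) that overlapped each of 6 peak lists that did not choose the regions (x axis), for the regions (red circles), kept peaks at a gained 5hmC peak (orange squares), all kept peaks (blue diamonds) and lost peaks without VitC+ 5hmC (grey triangles). The red circles fall from 27.6% to 21.0% between VitC+ and VitC+/- femurs, and from 64.6% to 36.4% between Ctrl and Tet1/2 cKO femurs.

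To ask which genes lie beside the regions, a gene was called near when its start site was within 30 kb of a region's midpoint. This held for 975 of 21911 protein-coding genes (4.45%), of which 825 had 1 region, 128 had 2 and 22 had 3 or more. Chst3, an enzyme that sulfates chondroitin, Susd5 and Tnn, which encodes the matrix protein tenascin-W, had most, with 5 each. Hoxb3 and the predicted gene Gm11492 had 4 each, and Gm11492 has no row in the RNA tables.

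Gene lists were placed on the same map, beside the 4.45% of all genes. Of the Bone60 list, which the study built as bone-selective genes from RNA-seq of many human and mouse tissues, 8 of 59 genes (13.6%) were near a region, and of 30 bone matrix and mineralization genes 2 (6.67%). Of 22 osteoblast transcription factors 1 was near, and of 14 osteoblast and osteocyte markers 1. Endothelial markers had 3 of 10 near, B-cell precursor markers 3 of 12 and adipocyte markers 4 of 18. Osteoclast markers had 2 of 10 and neutrophil markers 2 of 12, while erythroid markers had 0 of 10 and skeletal muscle markers 0 of 12. A share above that of all genes was thus not particular to bone lists, and no difference between lists was tested. Wnt ligands, receptors and antagonists had 8 of 54, BMP and TGF-beta genes 7 of 49, adhesion, cytoskeleton and matrix receptor genes 8 of 56, axon guidance and synapse genes 7 of 86, and PRC2, H3K27 demethylase and TET genes 3 of 23. Developmental transcription factors had 19 of 151 (12.6%), and 98 of them (64.9%) had a kept H3K27me3 peak within 30 kb, against 44.2% of all genes. A lost peak without VitC+ 5hmC lay as near to 93 of them (61.6%), against 38.9% of all genes. These genes, classical targets of PRC2, thus had kept and lost H3K27me3 peaks nearby at similar shares. Hoxa10, Hoxa11 and Hoxb3 were the developmental transcription factor genes with a region within 3 kb of the start site.

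RNA of the 975 near genes was compared in femurs as a readout that did not choose the regions. With VitC withdrawal, more near genes fell than rose. Of 571 near genes tested, 63 were lower (11.0%) and 27 higher (4.73%) in VitC+/- than in VitC+ femurs, against 7.52% lower and 5.93% higher among all 12586 genes tested (limma with Benjamini-Hochberg adjustment over all of them, threshold 0.05). The median log2 fold change was −0.04 for near genes and 0.02 for all genes. Within 5 kb, 19 of 119 genes fell (16.0%) and 8 rose (6.72%), with a median of −0.11, and within 100 kb 147 of 1842 fell (7.98%) and 112 rose (6.08%). Genes with a region within 3 kb of the start site gave 18 lower and 8 higher of 106. The share of lower genes was thus highest close to the regions and at 100 kb lay near that of all genes. Near kept peaks 8.51% of 5580 genes fell, near lost peaks without VitC+ 5hmC 9.21% of 4617, and near kept peaks at gained 5hmC 9.97% of 1454. These gene groups overlap, and no difference between them was tested. Marker sums of neutrophils and osteoclasts differed between the groups as well. Neutrophil markers summed to 30220 to 48060 RPKM in VitC+ and 7467 to 24998 in VitC+/- femurs, with 2 of 12 lower, and osteoclast markers to 1912 to 2638 and 2966 to 6544, with 4 of 10 higher. Neither pair of ranges overlapped, and their part in the counts near regions was not tested. Ranges of endothelial, erythroid, adipocyte and skeletal muscle marker sums overlapped between VitC+ and VitC+/- femurs.

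The count of lower near genes depended on single libraries. It was 33, 29 and 26 without VitC+ replicates 1, 2 and 3, and 27 without VitC+/- replicate 1, and the count of higher genes was 11, 8, 10 and 7 in these fits and 44 without WT replicate 1. The share of lower genes was higher among near genes than among all genes in each of the 15 alternative fits, for instance 4.55% and 2.75% without VitC+ replicate 3 and 9.63% and 6.21% without VitC+/- replicate 2.

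**Figure D4:**
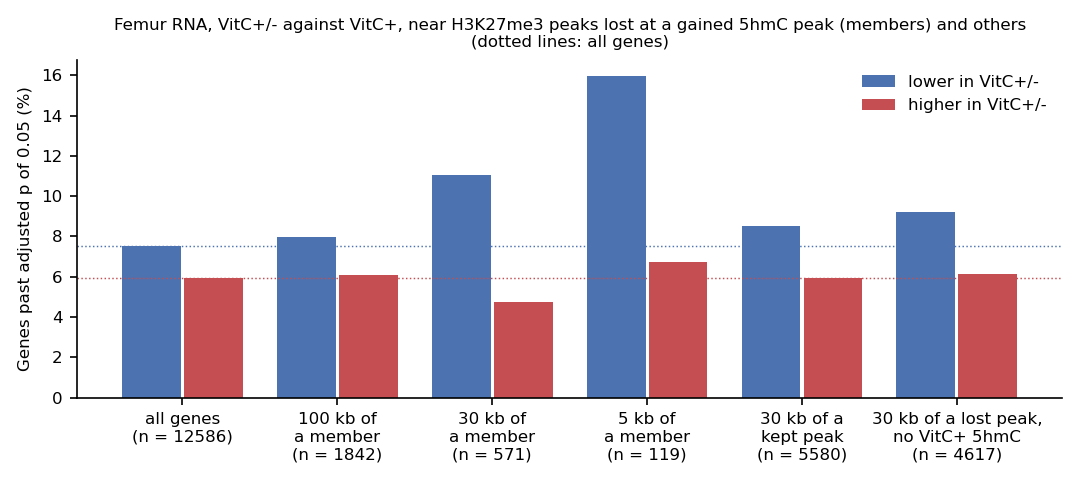
Share of tested genes past an adjusted p of 0.05 (y axis, %) that were lower (blue) or higher (red) in VitC+/- than VitC+ femurs, for all genes, for genes within 100, 30 and 5 kb of a region (members), and for genes within 30 kb of a kept or another lost H3K27me3 peak. Blue bars grow from 7.98% at 100 kb to 16.0% at 5 kb, and dotted lines give the 7.52% and 5.93% of all genes.

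Regions with femur 5hmC were looked at in the same way. Near the 160 regions with a femur 5hmC peak in the VitC+ list only, 48 genes were tested. Of these, 7 were lower (14.6%) and 2 higher (4.17%) in VitC+/- than in VitC+ femurs, with −0.20 as the median log2 fold change. Near the 333 regions with femur 5hmC in both lists, 16 of 106 genes were lower and 2 higher, with a median of −0.10. Set against WT femurs instead, the 48 genes did not lean lower: 8 fell, 10 rose and their median was 0.23, where that of all genes was 0.01. The 106 genes split into 22 that fell and 20 that rose, and their median was −0.09. Compared with WT femurs, the same VitC+/- libraries had 103 lower (18.0%) and 105 higher (18.4%) near genes, against 15.9% and 15.3% of all genes. Both comparisons share the VitC+/- libraries, and near genes as a whole leaned toward lower values against VitC+ femurs only.

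The 8 largest falls and 8 largest rises were picked only among near genes without overlap between VitC+ and VitC+/- libraries. Among the falls were genes of the B-cell list and a bone gene. Igll1 and Vpreb1, which encode the surrogate light chain of the pre-B-cell receptor, lie beside the same region, at chr16:16857967-16861549. In VitC+ femurs Igll1 was 4.87, 12.7 and 9.77 RPKM after scaling, and in VitC+/- femurs 0.16, 0.105 and 0.138, a log2 fold change of −3.83 ± 0.71 (SE, adjusted p = 0.0116). Vpreb1 was 5.61, 10.4 and 9.47 RPKM against 0.217, 0.079 and 0.157 (adjusted p = 0.0214). Ly6d, a marker of B-lineage commitment, fell by 2.91 on the log2 scale (adjusted p = 0.00172). The list of B-cell precursor markers, which holds Igll1 and Vpreb1, had 10 of 11 tested genes lower, a median log2 fold change of −2.23 and a summed level of 91.3 to 172 RPKM in VitC+ and 16.3 to 30 in VitC+/- femurs. In whole femurs fewer B cells and less RNA per cell cannot be told apart, and the part of B-cell number in these falls was not tested.

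As3mt, an arsenite methyltransferase, had the smallest standard error of the 16 genes with the largest falls and rises. Its region lies 14.0 kb into the gene, at chr19:46721061-46721757. Values were 10.3, 11.5 and 11.5 RPKM in VitC+ and 1.76, 1.06 and 1.15 in VitC+/- femurs, a log2 fold change of −2.69 ± 0.17 (SE, adjusted p = 0.000378), and WT femurs, at 10.1, 9.71 and 11.6, overlapped the VitC+ range. Slc8a3, a sodium-calcium exchanger, had a region 0.401 kb before its start site and was 6.02, 5.94 and 9.32 RPKM in VitC+ against 0.83, 0.497 and 1.41 in VitC+/- femurs. It fell by 2.45 on the log2 scale (SE 0.36, adjusted p = 0.00506). WT femurs, at 3.09, 0.952 and 2.14, overlapped the VitC+/- range. Pcsk6, a proprotein convertase, and Baiap2l2, a membrane-bending adaptor, fell by 2.55 and 2.21 (adjusted p = 0.0131 and 0.00591). WT femurs, at 2.76 to 10.7 RPKM for Pcsk6 and 0.111 to 0.626 for Baiap2l2, overlapped the VitC+/- range of both genes. Neither gene passed the threshold against WT (limma, adjusted p = 0.241 and 0.169).

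Dlx3, a homeobox factor of osteoblast differentiation, was the only near gene of the bone lists that fell. Its region covers 3690 bases past the gene end, 9.53 kb from the start site. VitC+ femurs had 9.45, 8.22 and 10.4 RPKM and VitC+/- femurs 1.66, 0.699 and 3.67, a log2 fold change of −2.15 ± 0.59 (SE, adjusted p = 0.0419). The call was lost in 6 of 9 fits without 1 library, where the log2 fold change ran from −2.61 to −1.71 and adjusted p from 0.0169 to 0.116. In WT femurs the values were 7.11, 0.916 and 2.71.

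Of the other bone genes near a region, Ggt5 had 8.88, 6.44 and 9.16 RPKM in VitC+ and 4.28, 6.03 and 2.74 in VitC+/- femurs and just missed the threshold (adjusted p = 0.0502). Alpl, the alkaline phosphatase of mineralizing osteoblasts, has a region in its intron, 18.4 kb from its start site, and its groups overlapped, at 145, 96.5 and 154 RPKM in VitC+ and 83.9, 27.6 and 161 in VitC+/- femurs (adjusted p = 0.416). Lrp5, a Wnt co-receptor, changed by −0.51 (adjusted p = 0.0968) and Cldn5, an endothelial tight-junction protein, by −1.12 (adjusted p = 0.146). Acp5, the acid phosphatase of osteoclasts, changed by 0.72 (adjusted p = 0.147), Ank, a pyrophosphate transporter, by 0.32 (adjusted p = 0.561) and Wnt4 by 0.28 (adjusted p = 0.736). Bmp8b, at 0.0524 to 0.103 RPKM in VitC+ and 0.103 to 0.123 in VitC+/- femurs, was too low to be tested. Over the whole Bone60 list 22 of 58 tested genes were lower and 2 higher (median −1.04 on the log2 scale), and 1 of the 22 lower genes had a region within 30 kb. Against WT femurs the same list had 6 lower and 12 higher genes and a median of 0.0095. Osteoblast and osteocyte markers had 7 of 14 lower, a median of −2.03 and summed levels of 5636 to 10977 RPKM in VitC+ and 712 to 4505 in VitC+/- femurs, and WT femurs, at 1068 to 4030, overlapped the latter. Against WT 3 of these markers were lower and 1 higher, with a median of −0.05. The part of osteoblast number in the falls near regions was not tested.

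Genes that rose near regions had other roles. Fkbp5, a co-chaperone of the glucocorticoid receptor, carries a region over its start site at chr17:28516880-28518051. It was 11.6, 15.5 and 10.8 RPKM in VitC+ and 46.0, 75.6 and 36.8 in VitC+/- femurs, a log2 fold change of 1.98 ± 0.28 (SE, adjusted p = 0.00434). Bnip3, a hypoxia-induced mitophagy receptor, was 12.4, 10.9 and 12.2 against 31.6, 81.2 and 36.0 RPKM (log2 fold change 1.90, adjusted p = 0.00812), and Spock2, a matrix proteoglycan, 0.295, 0.652 and 0.459 against 3.90, 5.15 and 5.09 (2.43, adjusted p = 0.00292). In all 3 genes every VitC+/- value was above every VitC+ and WT value. Tmem252 rose by 2.02, Ank1, a red-cell membrane ankyrin, by 1.67, Rasd1, a dexamethasone-induced Ras-like protein, by 1.67, Inhbb, an activin subunit, by 1.48 and Il1r2, a decoy interleukin-1 receptor, by 1.36 (adjusted p from 0.0107 to 0.0385). Against WT femurs Il1r2 did not pass the threshold (limma, adjusted p = 0.239), while Tmem252, Ank1, Rasd1 and Inhbb did. Of the 9 fits without 1 library, the call against VitC+ was lost in 6 for Rasd1, 4 for Inhbb, 3 for Il1r2 and 1 for Ank1. Among the falls it was lost in 3 for Vpreb1, 2 for Pcsk6 and 1 for Igll1. The adipocyte marker sum was 3562 RPKM in VitC+/- replicate 2 against 523 and 467 in replicates 1 and 3, and without replicate 2 the counts of lower and higher near genes were 55 and 23.

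**Figure D5:**
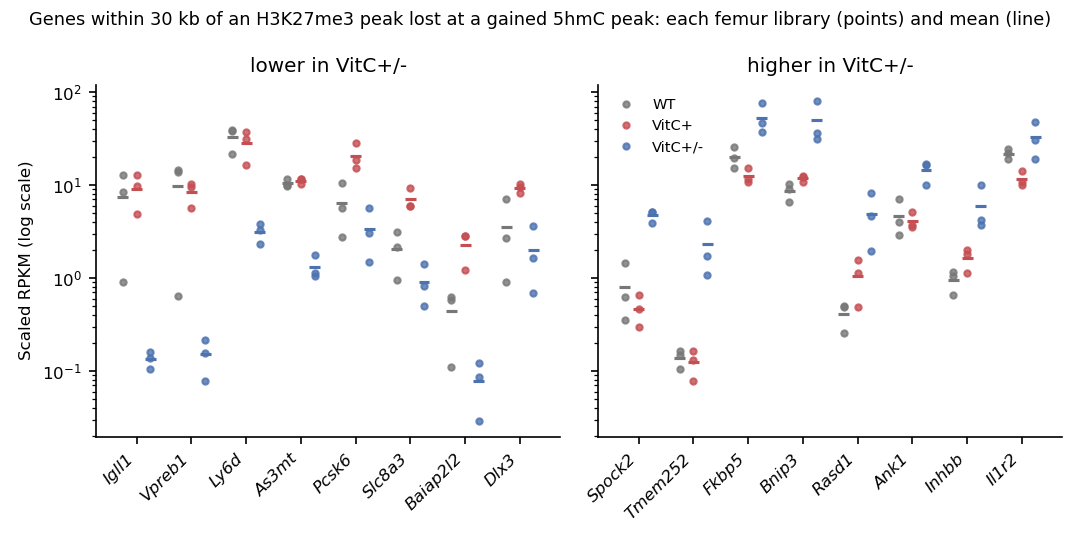
Scaled RPKM (y axis, log scale) of the 8 genes near a region with the largest falls (left) and rises (right) in VitC+/- against VitC+ femurs with a higher-group mean of 2 RPKM or more, in WT (grey), VitC+ (red) and VitC+/- (blue) femurs, with points for libraries and lines for group means (n = 3). Genes were picked only where blue and red points do not overlap, so the lack of overlap in the 16 genes is part of the choice.

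Ly6d, As3mt, Slc8a3, Baiap2l2, Spock2, Tmem252, Fkbp5 and Bnip3 stayed past the threshold in each of the 9 fits without 1 library. Chst3, 1 of the genes with most regions, was 1.85, 3.03 and 4.10 RPKM in VitC+ and 0.865, 0.764 and 1.19 in VitC+/- femurs, a log2 fold change of −1.24 (adjusted p = 0.0334), and lost the call in 4 of these fits. Susd5 and Tnn missed the threshold (log2 fold changes −1.83 and 3.02, adjusted p = 0.0586 and 0.0694), and Tnn was 27.3, 3.96 and 89.3 RPKM in VitC+/- femurs. Neither Hox gene with enough RNA changed between VitC+ and VitC+/- femurs past the threshold: Hoxa10 had a log2 fold change of −0.21 (adjusted p = 0.65) and Hoxb3 of −0.37 (adjusted p = 0.43).

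The enzymes of both marks were measured too. Tet1, with its intronic region, was 0.358, 0.617 and 0.608 RPKM in VitC+ and 0.176, 0.228 and 0.271 in VitC+/- femurs, below the limit for testing, and its groups did not overlap. Tet2, which is not near a region, was 0.98 higher on the log2 scale in VitC+/- femurs (adjusted p = 0.0153) and Kdm6a 0.72 higher (adjusted p = 0.0447), whereas Ezh2 was 0.86 lower (adjusted p = 0.0389). These calls were lost in 3, 6 and 4 of the 9 fits without 1 library. Tet3 and Kdm6b changed by 0.55 and 0.34 (adjusted p = 0.0673 and 0.305).

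Loss of Tet1 and Tet2 gave no change near the regions past the threshold of limma, and 2 by DESeq2. Of 766 near genes tested, 0 were lower and 0 higher in Tet1/2 cKO than in Ctrl femurs (limma), with 0% of all 16780 genes called in either direction. At an unadjusted p under 0.05, 51 of the 766 near genes were lower and 6 higher, against 551 and 296 of all 16780 genes. Within 5 kb these counts were 5 and 0 of 175 genes. Near kept peaks at gained 5hmC they were 74 and 24 of 1910. The median log2 fold change was −0.17 near regions and −0.01 over all genes, −0.29 within 5 kb, and −0.08 near kept peaks at gained 5hmC. edgeR and DESeq2 were run on whole reads recovered from the normalized counts, without Tet1 cKO replicate 3. edgeR called 0 near genes (44 at an unadjusted p under 0.05), and DESeq2 called 2 of its 11 genes near regions, both lower. These were Car12, a carbonic anhydrase, and Krt75, a keratin, and they are named because they were the only 2. Car12 was 932, 1308 and 621 in Ctrl and 154, 177 and 145 in Tet1/2 cKO femurs, and Krt75 was 27.5, 51.5 and 37.1 against 1.53, 3.04 and 3.84. Dlx3 had 630, 979 and 838 normalized counts in Ctrl and 182, 521 and 269 in Tet1/2 cKO femurs (log2 fold change −1.45, adjusted p = 0.723), and Alpl 4966, 5863 and 6964 against 1758, 3599 and 2402 (−1.25, adjusted p = 0.723), both without overlap. Skeletal muscle markers summed to 125597 to 539971 normalized counts in Ctrl and to 3739 to 459371 in Tet1/2 cKO femurs, and osteoblast and osteocyte markers to 1014821 to 1310778 and 318743 to 703470, and their part in the medians was not tested.

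The targeted genes gave no check of the labels. Gulo was 0.537, 0.442 and 0 RPKM in WT, 0.0268 to 0.238 in VitC+ and 0.0123 to 0.0177 in VitC+/- femurs, levels too low to check the genotype. Gene counts of Tet1 and Tet2 were not lower in Tet1/2 cKO femurs, at 415 to 485 against 374 to 435 for Tet1 and 1851 to 2970 against 2236 to 2512 for Tet2. Such counts can hold RNA outside the deleted part and RNA of cells without Prrx1-Cre, so they check neither label. The RPKM and peak files state no depth.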

How the data were processed

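The study measured H3K27me3, H3K9me3 and 5hmC in MC3T3-E1 cells and 5hmC and RNA in mouse femurs. Per the submitters' processing notes, reads were checked with FastQC 0.72, trimmed with Trim Galore 0.4.3.1 and aligned to mm10 with STAR 2.6.0b-1 or BWA 0.7.15.1, genes were counted with featureCounts 1.6.3 and DESeq2 2.11.40.2, and peaks were called with MACS2 2.1.1.20160309.6. The authors deposited 1 peak list per group, on combined samples, with fold enrichment over input, a pileup signal at the summit and −log10 q for each peak. The authors deposited RPKM values for the Gulo femurs and normalized counts, counts divided by size factors, for the Tet femurs. Dividing the latter gave whole reads in 100% of values (tolerance 0.05).

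Peaks were compared by 1 bp overlap. Femur VitC 5hmC lists hold autosomes only, so overlap shares use 1784 autosomal regions, with 95% Wilson intervals for counting error. RPKM values were scaled by median-of-ratios size factors and tested as log2(RPKM + 0.5) with limma 3.58.1 over all 9 libraries, for genes at 1 RPKM or more in at least 3 libraries. Tet femurs were tested as log2(normalized count + 1) over 12 libraries, for genes at 10 or more in at least 3. Fold changes are on these scales, which understate low genes. P-values were adjusted by Benjamini-Hochberg over all genes tested, and the threshold was 0.05. The study describes femur replicates as separate animals. Gene names matched for 20207 and 20507 of 21911 GENCODE protein-coding genes. The scripts were tested on simulated data.

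Members and gene lists were chosen with earlier results of these data known. Named genes were the 8 largest falls and rises past the threshold with a higher-group mean of at least 2 RPKM and no overlap between groups, near genes of the bone lists, developmental transcription factor genes with a region at the start site, the 5 genes with most regions, and the enzymes of both marks. Named regions were the 5 of highest fold and the 5 with the largest share under gained 5hmC, whose ties were broken by 5hmC fold after they had been seen. Authors' comparison columns were not used. Alternatives were other overlap and q limits, distances, pseudocounts, filters, scaling, edgeR 4.0.16, DESeq2 1.42.0 and leaving out each library. The edgeR and DESeq2 fits did not include Tet1 cKO replicate 3.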

Additional observations from a re-analysis of the deposited data

How the results depend on the processing

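With a minimum −log10 q of 2 the set held 349 regions, of which 14.7% met a VitC- H3K9me3 peak, 16.9% a VitC- 5hmC peak and 48.6% a gene or its flank. A 200 bp overlap with the gained peak gave 15.099% at a VitC- 5hmC peak. Using VitC+ H3K27me3 peaks with −log10 q of at least 1.3 only gave 29.8% at a femur VitC+ 5hmC peak and 37.1% with a VitC+ H3K27me3 peak within 1 kb, a share that is 0% by construction when such peaks are barred. Against VitC+ femurs, 19 near genes were lower and 8 higher within 5 kb (median log2 fold change −0.11), and 147 and 112 within 100 kb (0.0093). Without scaling 35 were lower and the median was 0.07, where that of all genes moved from 0.02 to 0.13. Without 1 library, 26 to 77 were lower and 7 to 44 higher. Against WT femurs, 23 were lower and 26 higher within 5 kb, 310 and 315 within 100 kb, and 61 to 103 and 64 to 113 without 1 library, lowest without WT replicate 3. In Tet1/2 cKO femurs DESeq2 called 2 lower genes, and the median was −0.29 within 5 kb and −0.037 within 100 kb. The cause of these shifts was not tested. Deviations of same-numbered libraries had no steady sign, with r from −0.19 to 0.46 in the VitC table and from −0.57 to 0.53 in the Tet table. With the number as a replicate block, 74 near genes were lower and 37 higher against VitC+, beside 1206 and 963 of all 12586 genes. Over 33 named genes, 370 of 429 alternative fits kept the direction and the side of the threshold, 46 lost the call, 11 gained it and 2 turned the direction, both of genes not past the threshold in either fit: Wnt4 (−0.12 without VitC+ replicate 2, range to 0.51) and Ank (−0.076 without VitC+/- replicate 3, range to 0.72). The ratio of VitC+ only to VitC+/- only femur 5hmC, an alternative set chosen after seeing the data, ran from 3.74 to 4.69. Pooled peak lists give no replicate error, and 3 femurs per group limit the RNA tests.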
